A study of Mus musculus with 74 samples.

Results

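DO11.10 T cell hybridoma cells that carried an empty retrovirus, MSCV, were compared with untreated DO11.10 cells on 12 arrays, of 74 in the whole series. The 12 arrays were chosen by the sample description they share, which names the empty virus, the untreated cells and the number of replicates, and no measured value entered the choice. They are called the 12-array set here. A second set of 4 arrays, whose description gives the same comparison with 4 replicates, is called the 4-array set. DO11.10 is a mouse line made by fusing an ovalbumin-specific T helper cell with a lymphoma cell, so every culture carries the same T cell receptor and grows without stimulation. The other arrays of the series followed HDAC7, MEF2D and Nur77 constructs in the same hybridoma, or thymocytes of mice, and each hybridoma array carried untreated cells as its second RNA. The groups named below are HDAC7-VP16 and MEF2D-VP16, fusions to a viral activation domain, Nur77, and cells with the HDAC7 construct labelled DP or with the empty virus that were treated with PMA and ionomycin, which mimic a T cell receptor signal. No stimulus, drug or dose is given for the 12-array set. The sources used here give no multiplicity of infection, time after transduction, selection of transduced cells or passage of either culture. Nothing in the labels ties an array to a culture of its own, so a p-value here reflects only how far these arrays scatter, and part of that scatter may be technical.

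An MSCV vector is a gammaretrovirus stripped of its own protein genes. Its RNA is copied into DNA in the target cell and inserted into a chromosome, and the viral promoter then drives whatever insert was cloned behind it. An empty vector carries no such insert and serves as the control for transduction, integration and handling. Cells can sense incoming retroviral nucleic acid with sensors that feed the type I interferon response, and T cells also answer handling, density and nutrient state through stress, hypoxia and growth programmes.

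Each array measured 16463 probes with 0 missing values, and its deposited values are log ratios, taken here as base 2 and as empty virus over untreated cells, since the sources used here state neither. Array medians lay between -0.015 and 0.011 before each was set to 0. By the titles, 6 arrays carried the empty-virus RNA in Cy5 (replicates 1 to 6) and 6 in Cy3 (replicates 7 to 12). The same 6 slide numbers occur in slide series 14 and in slide series 15, so each series holds 3 arrays of each orientation. In the label fields Cy3 stands for either channel, so the titles were used instead. Replicates 3 and 9 are slides 2 and 5 of series 14. Without spot intensities, signal over background is unknown and only ratios can be given.

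The direction of the 12 arrays was examined first, because replicates 3 and 9 stood apart. Among the other 10 arrays, the 20 pairs with the same titled orientation correlated at 0.32 to 0.78 over the 16463 probes, with a median of 0.57. The 10 pairs that set replicate 3 or 9 against an array of the same titled orientation correlated at -0.58 to -0.19, and 9 of them lay under -0.3. With arrays of the opposite title, replicates 3 and 9 correlated at 0.46 to 0.67, where the 25 other pairs of opposite title ran from -0.69 to -0.15. Replicates 3 and 9 correlated with each other at -0.47. After their titled dyes were exchanged, all 30 pairs of the same orientation were positive and all 36 pairs of opposite orientation were negative.

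**Figure D1:**
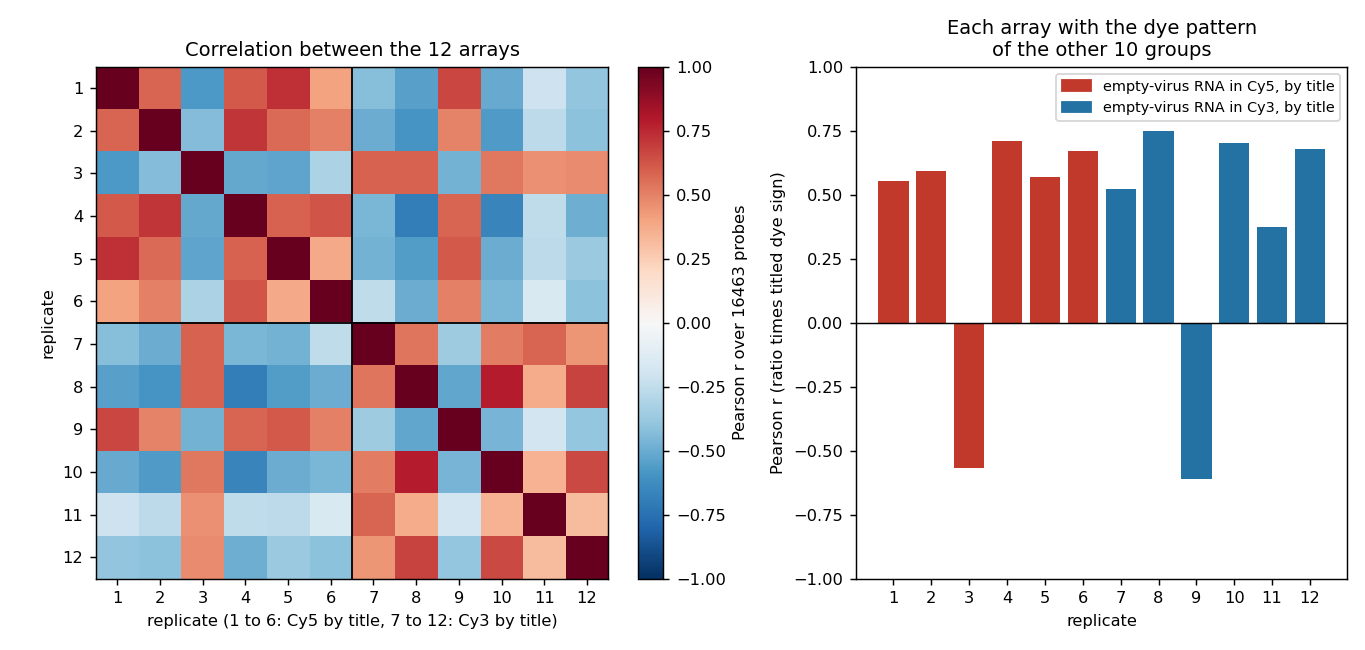
Left, Pearson correlation between the log2 ratios of each pair of the 12 arrays over 16463 probes, with black lines between titled orientations. Right, correlation of each array, multiplied by 1 for Cy5 and -1 for Cy3 by title, with the dye pattern of the other 10 groups. Replicates 3 and 9 lie at -0.57 and -0.61 and the other 10 arrays between 0.37 and 0.75.

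The dye pattern, the part of a ratio that changes sign when the dyes are swapped, could be taken from the other 10 groups of the series, whose arrays were hybridized in both orientations. Multiplied by its titled orientation, each of 10 arrays correlated with that pattern at 0.37 to 0.75, while replicate 3 gave -0.57 and replicate 9 gave -0.61. Against the thymocyte groups alone, which share no hybridoma RNA, replicates 3 and 9 gave -0.44 and -0.50 and the other 10 arrays gave 0.31 to 0.61. The mean of replicates 3 and 9, in which the dye part cancels, correlated at 0.34 with the orientation-balanced mean of the other 10 arrays. Taken in the same way, 25 other pairs of opposite orientation gave 0.11 to 0.40 with the remaining 8 arrays. The sign of their ratios was therefore kept. With that sign their dye pattern ran opposite to the titles, so the titled dye column does not describe it. The labels give no reason for this in these 2 arrays. Because each orientation holds one of them, exchanging their dyes leaves every log2 change of the 12-array set as it is and alters only its standard error (SE), whose median was 0.069 as titled and 0.062 exchanged. Results are given as titled, and the exchanged count of a list, or a gene's exchanged adjusted p, is added where a call differs. With the sign of both ratios turned, 0 probes were called by limma and 1376 lay at an unadjusted p under 0.05, so the 325 calls over the 12 arrays rest on the kept sign. Fits without these 2 arrays do not: 315 probes were called without both.

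Few probes were called in the 12-array set, and their changes were small. Calls were made in limma where the p-value, adjusted over all probes by Benjamini and Hochberg, lay under 0.05, and 325 of 16463 were called (1.97%), 103 higher (0.626%) and 222 lower (1.35%) in empty-virus cells. With the dyes of replicates 3 and 9 exchanged the count was 623 (3.78%), 233 higher (1.42%) and 390 lower (2.37%), and 320 probes were called both ways. Exchanged counts of a list, given below, stand against these exchanged shares and not the titled ones. None of these called probes reached a 2-fold change in either fit. The largest called change was 0.96 in size on the log2 scale, and the median size was 0.35 among called probes, against 0.060 over all probes. Of the 325, 302 kept their direction on at least 10 of the 12 arrays and 129 on all 12. Leaving out one array gave 178 to 333 calls, and the count was lower by more than 1.5 times without replicate 1 (178), 5 (205), 7 (210), 11 (185) or 12 (208). Of 45 called genes chosen for naming, 33 kept their call whichever array was left out, and the other 12 are marked where they appear. Fits with one array left out used the titled dyes only. With the dyes exchanged and all 12 arrays kept, 0 of the 45 lost their call. Over the whole array, 152 probes (0.923%) lay on one side of 0 on every array, 54 above and 98 below. A gene symbol was assigned to 295 of the called probes and to none of the other 30.

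Ccng2, which encodes the cyclin G2 protein of cells leaving the cycle, had the smallest adjusted p of the named genes that rose. Its log2 ratio ran from 0.43 to 1.12 with a median of 0.87, so all 12 arrays lay above 0. It was 1.77-fold higher in empty-virus cells (log2 change 0.82, SE 0.064, adjusted p = 7.21e-05). Klf2, the quiescence and homing transcription factor of T cells, had the highest called change, at 0.88 (SE 0.20, adjusted p = 0.0485, and 0.000593 with the dyes exchanged). As titled it lost its call without any one array except replicate 3, at adjusted p up to 0.107. Its arrays were spread widely, from -0.33 to 2.04 with a median of 1.05, and 10 of 12 were above 0. The spread followed the dye: with replicates 3 and 9 exchanged, Klf2 averaged 1.61 on arrays with the empty virus in Cy5 and 0.14 in Cy3 (adjusted p of the dye term = 0.000203).

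Slc25a13, the mitochondrial aspartate and glutamate carrier, rose by 0.77 and lay between 0.015 and 1.76 on all 12 arrays. Cdc42ep2, an effector of the small GTPase Cdc42, rose by 0.75 with 11 arrays above 0. Stra6, the retinol uptake receptor, rose by 0.60 (11 of 12 arrays), and Phlda2, a small pleckstrin-homology protein gene that is imprinted, by 0.58 (12 of 12). P2rx3, an ATP-gated ion channel gene, ran from 0.34 to 1.22 with a median of 0.54 (log2 change 0.56, adjusted p = 0.00118). Ccn4, a secreted matricellular protein induced by Wnt, ran from 0.20 to 0.92 (log2 change 0.56, adjusted p = 0.000686). Both lay above 0 on every array of the 12-array set, where the 4-array means were -0.73 for P2rx3 and -0.21 for Ccn4. Ier3, an immediate early survival gene, had the narrowest range of the 12 highest genes, 0.36 to 0.94 with a median of 0.51 (log2 change 0.55, SE 0.046, adjusted p = 0.000123). Mras, a Ras-family GTPase gene, rose by 0.55 at its first probe, but its other probe gave 0.07 with an adjusted p of 0.739.

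**Figure D2:**
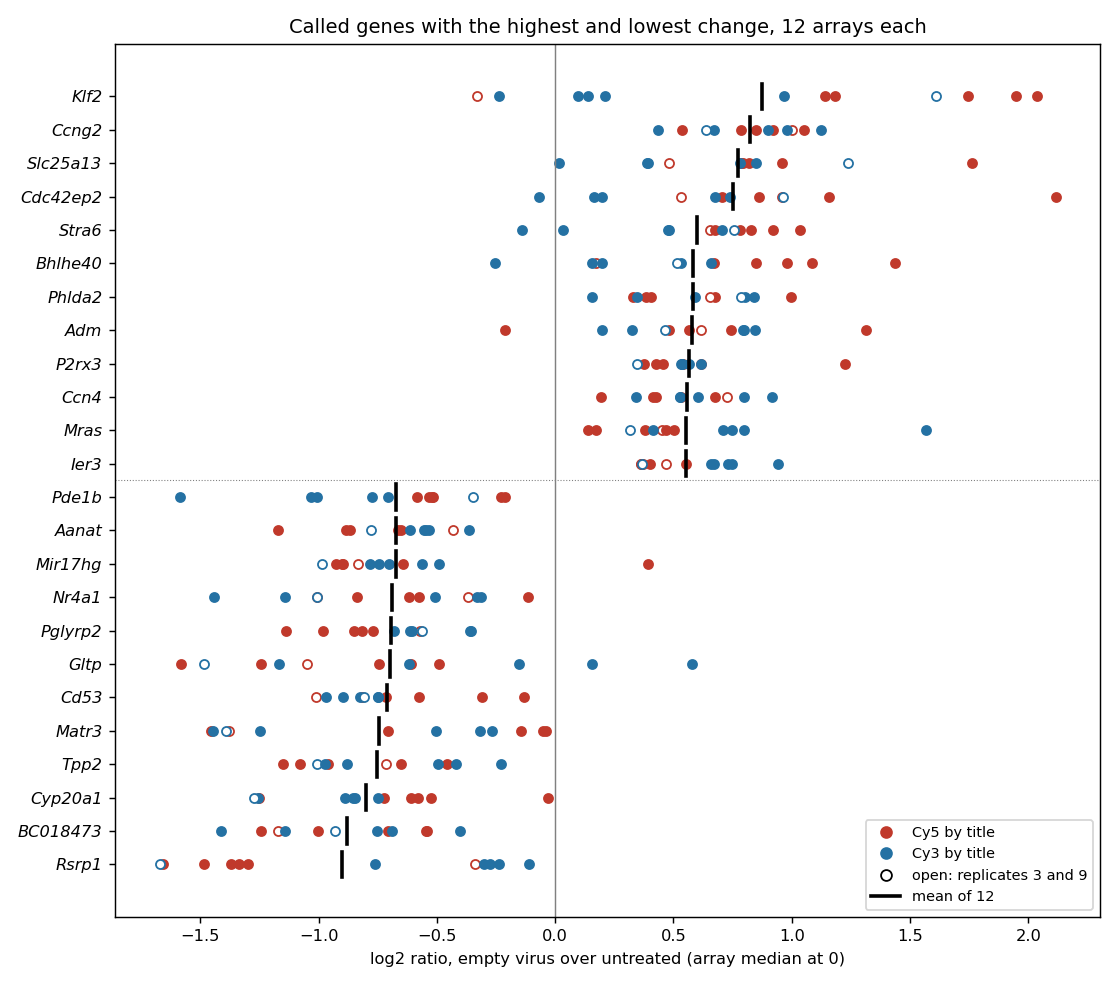
Log2 ratio of empty virus over untreated cells (horizontal axis, array median at 0) on each of the 12 arrays for the 12 highest and 12 lowest called genes whose direction held on at least 10 arrays. Points are arrays, coloured by titled dye and open for replicates 3 and 9, and bars are means. Ccng2 lies between 0.43 and 1.12, while the points of Klf2 and Rsrp1 separate by dye.

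Of the genes that fell, Nr4a1, which encodes Nur77 and is induced by T cell receptor signals, lay below 0 on all 12 arrays, from -1.44 to -0.11 with a median of -0.60. It was 1.61-fold lower in empty-virus cells (log2 change -0.69, SE 0.11, adjusted p = 0.00600). Cd53, a leukocyte tetraspanin gene, ran from -1.01 to -0.13 and was below 0 on all 12 arrays (log2 change -0.71, adjusted p = 0.000284). Pglyrp2, a peptidoglycan-binding amidase gene, had the smallest adjusted p of the named genes that fell, 7.21e-05, with a range of -1.14 to -0.35 (log2 change -0.69, SE 0.052). Aanat, the melatonin-pathway acetyltransferase, fell by 0.67 with 0 of 12 arrays above 0, and Pde1b, a calmodulin-dependent phosphodiesterase gene, also fell by 0.67 with 0 of 12 above 0.

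Rsrp1, the gene of an arginine- and serine-rich protein, had the lowest change of the named genes (log2 change -0.90, SE 0.14, adjusted p = 0.00538), with all 12 arrays below 0. Its arrays formed separate blocks by dye: after the exchange it averaged -1.47 in Cy5 and -0.34 in Cy3 (adjusted p of the dye term = 1.02e-05). BC018473, a transcript known by its clone name, fell by 0.88, and its arrays ran from -1.42 to -0.40. Cyp20a1, an orphan cytochrome P450 gene, fell by 0.80 (range -1.27 to -0.029). Tpp2, a large cytosolic peptidase gene, fell by 0.75 at its first probe, while its second probe gave -0.04 with 6 of 12 arrays below 0. Gltp, a glycolipid transfer protein gene, fell by 0.70 with an adjusted p of 0.0498, and it averaged -0.21 on series 15 arrays and -1.19 on series 14 arrays. Its call was lost without any one array except replicate 10 (adjusted p up to 0.119). Matr3, a nuclear matrix RNA-binding protein gene, fell by 0.75, with 0 of 12 arrays above 0 and the same split by series, described below. It lost its call without replicate 1, 5, 7, 9 or 11 (adjusted p up to 0.0848).

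Mir17hg is known as the host gene of the miR-17 to miR-92a cluster, a Myc-driven growth cluster of lymphoid cells. Its ratio was below 0 on 11 of 12 arrays, from -0.98 to 0.39 with a median of -0.76 (log2 change -0.67, SE 0.10, adjusted p = 0.00508). Replicate 5 was the 1 array above 0. The mature miRNAs were not measured. RefSeq (GRCm38.p6) annotates Mir17hg at chr14:115044390-115046728, which holds miR-92a-3p, while the other 5 lie before its annotated start. The 6 mature guide strands are printed to show the cluster the gene is named for, from RefSeq (chromosome 14, plus strand), 5′ to 3′, with the seed (bases 2 to 8) in capitals.
miR-17-5p: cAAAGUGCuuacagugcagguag
miR-20a-5p: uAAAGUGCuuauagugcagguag
miR-18a-5p: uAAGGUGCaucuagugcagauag
miR-19a-3p: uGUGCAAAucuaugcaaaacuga
miR-19b-3p: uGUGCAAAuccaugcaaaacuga
miR-92a-3p: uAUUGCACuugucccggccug
The 6 strands hold 4 different seeds, since miR-17-5p shares one with miR-20a-5p and miR-19a-3p shares one with miR-19b-3p.

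Of 14 genes the wider study turns on 12 were measured, and 2 were called (16.7%, against 1.97% of all probes), with 2 higher and 4 lower at an unadjusted p under 0.05. None rose and 2 fell, Nr4a1 as above and Cd6, a T cell adhesion receptor gene (log2 change -0.36, adjusted p = 0.0466, SE 0.083), which lay above 0 on 1 of 12 arrays. Cd6 lost its call without any one array except replicate 3 (adjusted p up to 0.107). With the dyes exchanged it averaged -0.63 in Cy5 and -0.09 in Cy3. Nr4a1 and Cd6 were also among the genes reported for other groups of these data, so the list is no independent choice. Hdac7, the class IIa histone deacetylase gene, had a log2 change of 0.13 (SE 0.055, adjusted p = 0.369) and lay between -0.15 and 0.51. Mef2d, the transcription factor that tethers HDAC7 to DNA, had -0.08 (adjusted p = 0.628). The costimulatory receptor gene Cd28 had 0.17 (adjusted p = 0.321) and the inhibitory receptor gene Pdcd1 had -0.40 (adjusted p = 0.0789). Pdcd1 was called with the dyes exchanged (adjusted p = 0.0201), and then averaged -0.03 in Cy5 and -0.77 in Cy3. Hdac5, Hdac9, Mef2c, Irf4, Bcl6 and Cd5 had log2 changes between -0.10 and 0.10, and 0 of these 6 were called.

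Hypoxia-induced and glycolysis genes gave the most called members of any list in one direction. This programme is run by hypoxia-inducible factors, which bind a short core sequence near genes of glucose use, mitophagy and vascular signalling. This list, like the others, was written with earlier results of these data known, so its counts are no independent support. Of 34 members measured, 5 rose and 0 fell, against 0.626% of all probes higher and 1.35% lower. In all, 12 of 34 were higher at an unadjusted p under 0.05 and 2 were lower, against 5.38% and 6.57% of all probes. The list's median change was 0.13, against 0.0087 over all probes. Bhlhe40, a transcriptional repressor induced by hypoxia and by T cell activation, ran from -0.26 to 1.44 with a median of 0.60 (log2 change 0.58, SE 0.10, adjusted p = 0.0115). With the dyes of replicates 3 and 9 exchanged it averaged 0.92 in Cy5 and 0.24 in Cy3. Adm, the gene of the vasodilator peptide adrenomedullin, ran from -0.21 to 1.32 with a median of 0.59 (log2 change 0.58, adjusted p = 0.0140). Selenbp2, a selenium-binding protein gene, ran from -0.0090 to 1.11 (log2 change 0.48, adjusted p = 0.0129). Each of these was above 0 on 11 of 12 arrays.

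The glycolytic aldolase gene Aldoc ran from 0.092 to 0.82 (log2 change 0.41, adjusted p = 0.00648), and the mitophagy receptor gene Bnip3l ran from 0.086 to 0.78 (log2 change 0.38, adjusted p = 0.0115). Both were above 0 on all 12 arrays. With the dyes exchanged 7 members rose and 0 fell, against 1.42% of all probes higher and 2.37% lower in that fit. Bnip3 (log2 change 0.33, adjusted p = 0.00255) and the Myc antagonist gene Mxi1 (0.36, adjusted p = 0.0480) were the added ones. The best known target genes were not all part of this. Ndrg1 had a log2 change of 0.07 (6 of 12 arrays above 0), and its other probe gave -0.07. The glucose transporter gene Slc2a1 had 0.30 (adjusted p = 0.249), and the glycolytic enzyme gene Gapdh had -0.41 (adjusted p = 0.255), the lowest of the list.

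Promoters of the members that rose are shown because the hypoxia-inducible factor core can be read in them. RefSeq promoters (GRCm38.p6, 250 bases before to 50 after the gene start) were searched for ACGTG and GCGTG on both strands, so that CACGT and CACGC also count, and the cores are in capitals.
Selenbp2, chr3:94693323-94693622, plus strand: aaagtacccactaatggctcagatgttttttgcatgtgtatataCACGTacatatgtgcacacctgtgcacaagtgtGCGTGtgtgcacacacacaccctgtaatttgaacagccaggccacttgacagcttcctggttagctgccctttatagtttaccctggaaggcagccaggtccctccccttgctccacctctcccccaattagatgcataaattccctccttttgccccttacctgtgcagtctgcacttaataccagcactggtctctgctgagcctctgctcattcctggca
Adm, chr7:110627407-110627706, plus strand: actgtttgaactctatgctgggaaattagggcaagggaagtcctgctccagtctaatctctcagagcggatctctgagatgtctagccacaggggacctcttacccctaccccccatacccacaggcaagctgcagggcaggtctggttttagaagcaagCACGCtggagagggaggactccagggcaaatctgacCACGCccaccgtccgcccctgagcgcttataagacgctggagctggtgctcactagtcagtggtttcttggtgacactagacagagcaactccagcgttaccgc
Aldoc, chr11:78322823-78323122, plus strand: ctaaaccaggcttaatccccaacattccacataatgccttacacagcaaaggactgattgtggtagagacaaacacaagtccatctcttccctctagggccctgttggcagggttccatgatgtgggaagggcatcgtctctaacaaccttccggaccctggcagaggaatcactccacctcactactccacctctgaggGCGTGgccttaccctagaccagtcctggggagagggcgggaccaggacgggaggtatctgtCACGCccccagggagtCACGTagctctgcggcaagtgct
The Selenbp2 promoter held 2 cores, the Adm promoter 2 and this Aldoc promoter 3, and a second Aldoc start held 1. Promoters were found for 3 of the 5 genes that rose. Of all 32851 RefSeq promoters searched, 43.8% held at least 1 core, and over the 40 promoters of the 30 list members found, 33 did (82.5%). The list was written as hypoxia-induced genes, so a high share was likely whatever the arrays showed. In all, 28 of the 30 members held a core, with or without a call, so the core does not mark the genes that rose. A match is a stretch of letters in a 300-base window and not a measured binding site.

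Integrated stress response genes, which cells raise when translation is slowed by amino acid or endoplasmic reticulum stress, held fewer calls. Of 25 measured, 1 rose and 0 fell, and 9 were higher at an unadjusted p under 0.05 with 0 lower. The list's median was 0.09, and 20 of 25 members lay above 0, against 8942 of 16463 probes. Lists without a call as titled also leaned this way. Of the ribosomal protein genes 25 of 28 lay above 0, and of the oxidative phosphorylation genes 20 of 27. Trib3, the pseudokinase gene induced by ATF4, rose by 0.51 (adjusted p = 0.0407), from -0.07 to 1.56 with 11 of 12 arrays above 0, but lost its call without any one array except replicate 3 or 11 (adjusted p up to 0.0960). Chac1 (0.49), Nupr1 (0.33) and Ddit3 (0.27) were called with the dyes exchanged only, at adjusted p between 0.0225 and 0.0266. Among 18 cholesterol synthesis genes 1 rose, the squalene synthase gene Fdft1 (log2 change 0.44, adjusted p = 0.0227, 10 of 12 arrays above 0), and 0 fell, with 3 rising after the exchange. Fdft1 lost its call without replicate 1, 4 or 11 (adjusted p up to 0.0626). In the heat shock list of 17 genes 0 rose and 1 fell, the constitutive chaperone gene Hspa8 (-0.62, adjusted p = 0.00251), which averaged -0.96 in Cy5 and -0.27 in Cy3 after the exchange. The co-chaperone gene Dnajb1 rose with the dyes exchanged (0.24, adjusted p = 0.0479). Of the integrated stress response, cholesterol and heat shock lists, 4%, 5.56% and 5.88% were called, against 1.97% of all probes. At an unadjusted p under 0.05 the cholesterol list held 5 higher and 1 lower, and the heat shock list 3 and 1.

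Genes of the p53 response, of quiescence and of glucocorticoid response each held members that rose and members that fell. Of these lists 16.7%, 21.1% and 33.3% were called, against 1.97% of all probes. At an unadjusted p under 0.05 they held 3, 3 and 5 higher and 2, 4 and 4 lower members. Of 18 p53 targets, 2 rose: Cdkn1a, the p21 cyclin-kinase inhibitor gene (0.43, range 0.11 to 0.71), and Bbc3, the PUMA killer gene (0.41, range 0.087 to 0.68). Both were above 0 on all 12 arrays. The nuclease gene Aen, another p53 target, fell by 0.32 (adjusted p = 0.0399), a call lost without any one array except replicate 3 or 7 (adjusted p up to 0.0886). With the dyes exchanged Aen averaged -0.56 in Cy5 and -0.08 in Cy3. Of 19 quiescence and FoxO genes 3 rose, Klf2, Ccng2 and the transcriptional coregulator gene Cited2 (0.52, 8 of 12 arrays above 0), and 1 fell, the thioredoxin inhibitor gene Txnip (-0.38, adjusted p = 0.0192). Cited2 lost its call without any one array except replicate 9 (adjusted p up to 0.0864). With the dyes exchanged Cited2 averaged 0.02 in Cy5 and 1.03 in Cy3 (adjusted p of the dye term in limma = 0.000319). After the exchange 3 fell, with the stress protein gene Sesn3 (-0.27) and the T cell transcription factor gene Lef1 (-0.34) added. Of 15 glucocorticoid-response genes 3 rose, the phosphatase gene Dusp1 (0.52), the leucine zipper gene Tsc22d3 (0.43) and the clock gene Per1 (0.17), and 2 fell, the kinase gene Sgk1 (-0.32) and Txnip. Dusp1 lay above 0 on 12 of 12 arrays and Tsc22d3 on 11. With the dyes exchanged Sgk1 lost its call (adjusted p = 0.0503), and 4 members rose, with the RNA-decay factor gene Zfp36 added (0.55), and 1 fell.

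Immediate early genes, the first to answer a growth or receptor signal, also split. In this list 12.9% were called, against 1.97% of all probes, with 9 higher and 2 lower at an unadjusted p under 0.05. Of 31 measured, 3 rose, Ier3, Dusp1 and the AP-1 subunit gene Fosl2 (0.44, adjusted p = 0.00229), and 1 fell, Nr4a1. Egr1, which is usually raised with Nr4a1 after T cell receptor signals, had a log2 change of 0.26 (adjusted p = 0.0807, 8 of 12 arrays above 0), and Fos had -0.11 (adjusted p = 0.706). With the dyes exchanged 5 rose, with Egr1 (adjusted p = 0.00512) and Zfp36 added, and 3 fell, with the transcription factor gene Klf10 (-0.26) and the phosphatase gene Dusp6 (-0.39) added. That fit called 1.42% of all probes higher and 2.37% lower. Of 30 T cell activation and cytokine genes, 2 rose, Bhlhe40 and the stress adaptor gene Gadd45b (0.52, range 0.12 to 1.01), and 2 fell, the lymphotoxin gene Ltb (-0.34, 12 of 12 arrays below 0) and Phlda1 (-0.30, 11 of 12 below 0). The exchange made it 3 that fell, with Pdcd1 added. As titled 13.3% of this list were called, with 2 higher and 5 lower at an unadjusted p under 0.05.

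Nucleolar ribosome biogenesis genes and Myc targets held calls in the lower direction alone. Of 25 measured, 0 rose and 4 fell (16% called, against 1.97% of all probes). At an unadjusted p under 0.05, 0 were higher and 4 lower, and the list's median was -0.11 with 20 members below 0. Over all probes 7521 of 16463 lay at or below 0. The RNA helicase gene Ddx21 fell by 0.71 (SE 0.16, adjusted p = 0.0435), the nucleolar phosphoprotein gene Nolc1 by 0.52 (adjusted p = 0.0466) and the RNA polymerase I subunit gene Polr1b by 0.47 (adjusted p = 0.0498). With one array left out, as titled, these 3 calls were mostly lost. Ddx21 kept its call without replicate 3, 8 or 10, Nolc1 without replicate 2, and Polr1b without replicate 2 or 9. The adjusted p ran up to 0.102, 0.107 and 0.120 in that order. With the dyes exchanged and all 12 arrays kept, the adjusted p in limma was 0.00329, 0.0193 and 0.0156. The transferrin receptor gene Tfrc fell by 0.45 (adjusted p = 0.00634), from -1.07 to -0.16 with all 12 arrays below 0. Ddx21 was below 0 on 9 of 12 arrays and averaged -1.27 in Cy5 and -0.15 in Cy3 after the exchange. Polr1b then averaged -0.13 in Cy5 and -0.80 in Cy3. Myc itself had -0.17 (adjusted p = 0.563), and the nucleolin gene Ncl had -0.08. Of 37 cell cycle genes 0 rose and 1 fell, the kinase gene Cdk2 (-0.58, adjusted p = 0.0118). That is 2.7% called, near the 1.97% of all probes, with 2 higher and 3 lower at an unadjusted p under 0.05. Of 25 apoptosis genes 0 rose and 2 fell, the survival gene Bcl2 (-0.43, adjusted p = 0.0368) and the kinase gene Stk17b (-0.32), whose other probe gave 0.09. Of this list 8% were called, with 1 higher and 3 lower at an unadjusted p under 0.05. Bcl2 lost its call without replicate 1, 2, 3, 4, 6, 7, 10 or 11 (adjusted p up to 0.0886).

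**Figure D3:**
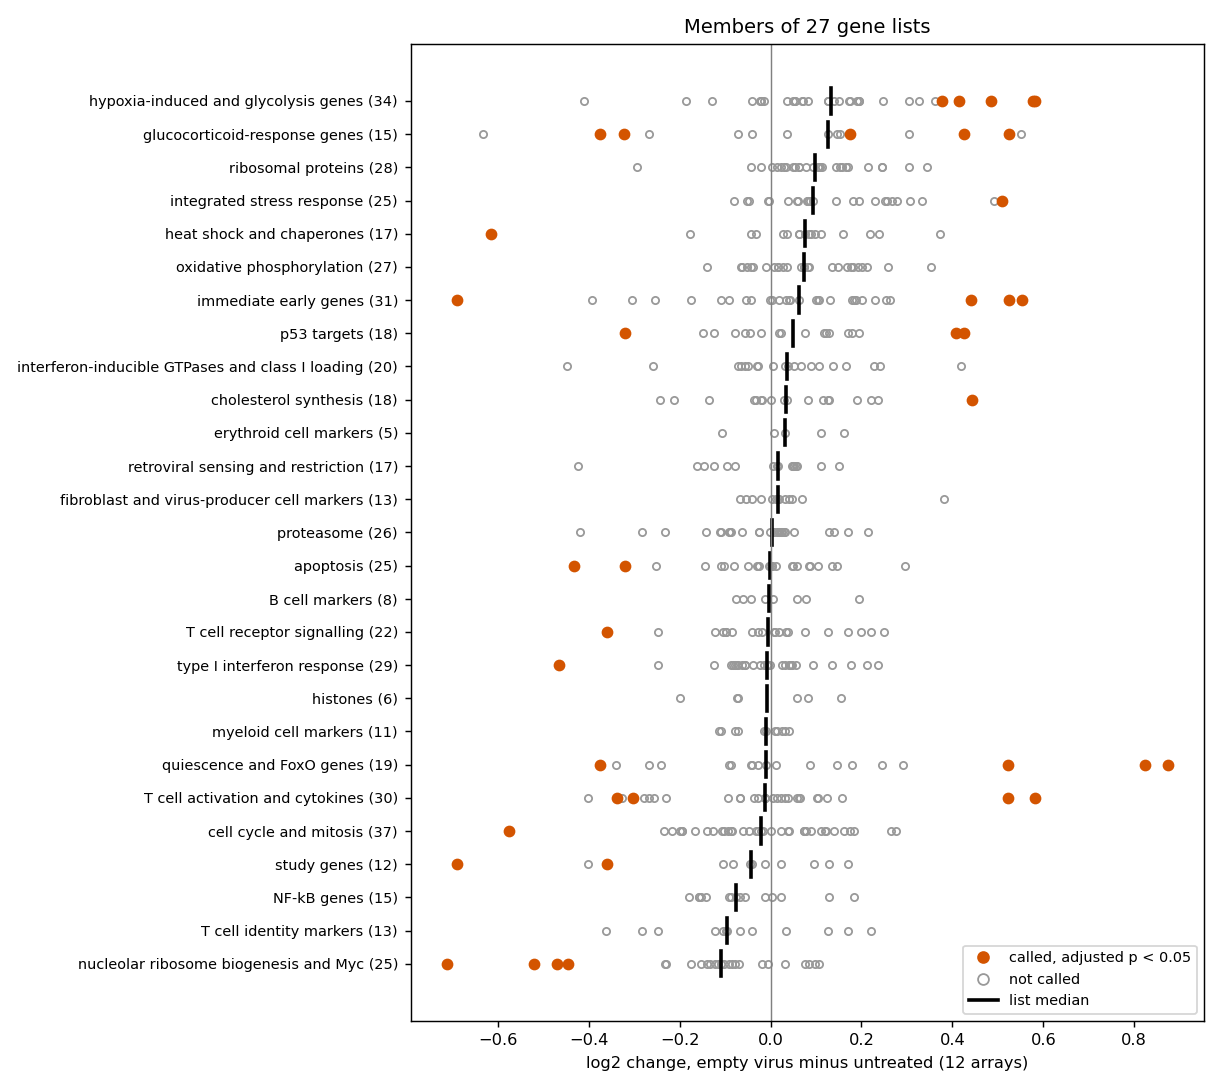
Log2 change of each measured member of 27 gene lists over the 12 arrays, ordered by list median, with the number measured in brackets. Filled points are called members, open points are members without a call and bars are list medians. The hypoxia list has the highest median (0.13) and the nucleolar list the lowest (-0.11).

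Of 29 type I interferon response genes 0 rose and 1 fell (3.45% called, near the 1.97% of all probes), with 2 higher and 1 lower at an unadjusted p under 0.05 in limma (5.38% and 6.57% of all probes), and the list's median was -0.0068. The gene that fell was Usp18, a protease gene that removes ISG15 from proteins (-0.46, range -0.96 to -0.093). Its other probe gave -0.26 with an adjusted p of 0.113. Isg15 had a log2 change of 0.21 (adjusted p = 0.248), Ifit1 had 0.06, Mx1 had 0.03 and Irf7 had -0.06, all without a call. Of 20 interferon-inducible GTPase and class I loading genes 0 were called, with 3 higher and 2 lower at an unadjusted p under 0.05, and with the dyes exchanged 1 rose, Gbp3 (0.42), and 1 fell, Irf1 (-0.26). Of 17 genes of retroviral sensing, restriction and entry 0 were called in either fit, with 0 higher and 1 lower at an unadjusted p under 0.05. Slc7a1, the receptor of ecotropic murine retroviruses, had 0.15 (adjusted p = 0.476), Slc20a1, whose human counterpart is the receptor for gibbon ape leukaemia virus, had -0.42 (adjusted p = 0.437), and the retroviral silencer gene Trim28 had 0.06.

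T cell genes and markers of other cells were examined in the same way. Of 13 T cell identity genes 0 were called, with 2 higher and 4 lower at an unadjusted p under 0.05 and a median of -0.10. With the dyes exchanged 3 fell: the receptor chain gene Cd3g (-0.25), the lineage factor gene Bcl11b (-0.28) and the adaptor gene Lat (-0.36). After the exchange 2.37% of all probes were called lower. Cd4 lay above 0 on all 12 arrays with a log2 change of 0.22 (adjusted p = 0.113). Of 22 T cell receptor signalling genes 1 fell, Cd6, and 0 rose (4.55% called, against 1.97% of all probes). With the dyes exchanged 3 fell, with Cd3g and Lat added, which the identity list also holds. B cell (8 measured), myeloid (11), erythroid (5) and fibroblast or virus-producer markers (13) had 0 calls. At an unadjusted p under 0.05 these lists held 1, 0, 0 and 1 members, all higher, and their medians lay between -0.010 and 0.032. With the dyes exchanged 1 fibroblast marker rose, Pdgfrb (0.38, adjusted p = 0.0487). Ratios do not say whether a marker was expressed at all, and fewer cells of a type and less RNA per cell cannot be told apart in bulk RNA. Ribosomal proteins (28 measured), oxidative phosphorylation (27), the proteasome (26), NF-kB genes (15) and histones (6) also had 0 calls as titled. At an unadjusted p under 0.05 they held 2, 1, 0, 1 and 1 higher members and 0, 0, 3, 3 and 0 lower ones. One gene of these lists rose after the exchange, the complex I subunit gene Ndufb3 (0.35, adjusted p = 0.0274).

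The dye part of a probe is the distance of its Cy5 mean from its mean over both orientations, and its size depends on how replicates 3 and 9 are read. It was larger than the log2 change of the virus in 10242 probes (62.2%) as titled, in 11351 (68.9%) with the dyes of replicates 3 and 9 exchanged and in 11256 (68.4%) without both. Its SD over probes was 0.22 as titled and 0.31 exchanged, against 0.13 for the log2 change. As titled the dye term called 0 probes in limma, with 4282 at an unadjusted p under 0.05. With the dyes of replicates 3 and 9 exchanged it called 5480 (33.3%), 2708 higher (16.4%) and 2772 lower (16.8%) in Cy5, and without both arrays 4912. Stc1, the hormone gene stanniocalcin 1, shows its size. It ran from -1.15 to 2.62, with 7 of 12 arrays above 0, and after the exchange averaged 2.37 in Cy5 and -0.55 in Cy3. Its log2 change of 0.91 was the highest on the array but was not called as titled (adjusted p = 0.157), and was called with the dyes exchanged (adjusted p = 0.000297) although the arrays lie on both sides of 0. The exchanged dye pattern correlated over probes with that of HDAC7-VP16 at 0.93, stimulated HDAC7 DP cells at 0.85 and stimulated empty-virus cells at 0.75, and with that of MEF2D-VP16 at -0.16, where stimulated means treated with PMA and ionomycin.

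**Figure D4:**
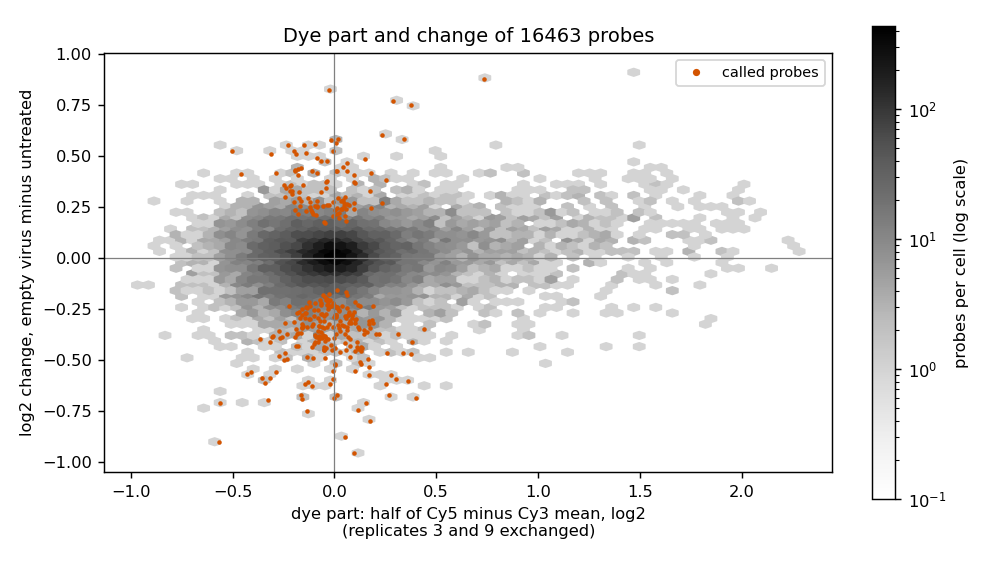
Dye part (horizontal axis, log2, replicates 3 and 9 exchanged) against the log2 change of empty virus minus untreated (vertical axis) for 16463 probes, shaded by the number of probes per cell on a log scale. Orange points are the 325 probes called as titled. The cloud is wider along the dye axis, with an SD of 0.31 against 0.13.

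Both slide series used the same slide numbers and orientations, so they could be set against each other. In series 15 against series 14, 41 probes were called (0.249%), 38 higher (0.231%) and 3 lower (0.0182%), and 129 (0.784%) with the dyes exchanged. Prrc2c, a large RNA-granule protein gene, ran from 0.83 to 1.20 on the series 15 arrays and from -0.64 to -0.04 on the series 14 arrays, with no overlap (difference 1.45, adjusted p = 8.33e-05). Over the 12 arrays its log2 change was 0.36 at this probe and 0.13 at its other probe, whose series difference is not given here. Ddx6, a helicase gene of RNA decay bodies, averaged 0.93 in series 15 and -0.67 in series 14 (difference 1.60, adjusted p = 0.0186). The chromatin enzyme genes Kdm5a and Kmt2c were 1.34 and 1.29 higher in series 15, and Matr3 averaged -0.22 in series 15 and -1.27 in series 14. The 3 probes called lower in series 15 were Sh2d2a, a T cell adaptor gene (-0.71), the microRNA processing gene Dgcr8 (-0.64) and Ccar2, a p53-pathway regulator (-0.40). Of the 8 named, Matr3 alone was also called over the 12 arrays as titled, and Sh2d2a with the dyes exchanged as well (adjusted p = 0.0304). What distinguished the slide series is not given in the sources used here.

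The ratio against untreated cells was also fitted within each slide series. Series 15 alone called 189 probes, and series 14 alone called 41 as titled and 444 with the dyes exchanged. Of the exchanged series 14 calls and the series 15 calls, 43 were shared in the same direction, 9.68% of the 444 and 22.8% of the 189. The orientation-balanced means of both series correlated at 0.26 over probes. The hypoxia list had a median of 0.10 in series 15 and 0.12 in series 14, and the nucleolar list -0.05 and -0.15. Ccng2 averaged 0.97 in series 15 and 0.68 in series 14, Ier3 0.57 and 0.54, and Nr4a1 -0.41 and -0.97.

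The 4-array set posed the same question, and some of its values differed. There 942 of 16463 probes were called against untreated cells (5.72%), 446 higher (2.71%) and 496 lower (3.01%), and 44 of them changed at least 2-fold. In the 12-array set against the 4-array set, each centred and with a dye column of its own, 518 probes were called (3.15%), 262 higher (1.59%) and 256 lower (1.56%), and 84 of them by at least 2-fold. With the dyes of replicates 3 and 9 exchanged the count was 850 (5.16%). Leaving out one array of the 4-array set gave 308 without replicate 1, 250 without 2, 301 without 3 and 299 without 4, and of 37 named genes called between both sets 8 to 11 then lost their call and 0 reversed. Klf2, Ddx21, Nr4a1, Mras, Cd53, Cdc42ep2 and Txnip lost it whichever of the 4 was left out. With the signs of replicates 3 and 9 turned, 19 of the 37 lost their call. Both sets carry untreated cells as the second RNA, and whether that RNA came from the same culture is unknown from the sources used here, so a difference between empty-virus cultures and one between untreated cultures cannot be told apart.

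The 4 named genes with the highest differences were Selenbp2 and Ndrg1 of the hypoxia list, Ccng2 and Stc1. Selenbp2 was between -0.0090 and 1.11 on the 12 arrays and at -3.36, -3.38, -3.74 and -3.06 on the 4 (difference 3.87, SE 0.18, adjusted p = 7.00e-09). Ndrg1, a stress- and hypoxia-induced gene, was between -0.53 and 0.81 on the 12 and at -3.13, -3.14, -3.32 and -3.58 on the 4 (difference 3.36, adjusted p = 1.79e-07). Ccng2 was between 0.43 and 1.12 on the 12 and at -2.45, -2.38, -2.11 and -1.97 on the 4 (difference 3.05, SE 0.12, adjusted p = 1.52e-09). The groups did not overlap for any of these genes. They were named for the size of this difference, so the lack of overlap is no separate support for it. Stc1 differed by 3.00 (adjusted p = 0.00382), with both ends of its dye split in the 12-array set above the 4-array values of -2.56 to -1.61. Over the hypoxia list the median was 0.13 in the 12-array set and -0.47 in the 4-array set, where 0 rose and 18 of 34 fell. Bhlhe40 averaged 0.58 ± 0.47 (SD, n = 12) in the first and -1.40 ± 0.20 (SD, n = 4) in the second.

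Other lists also had different medians in the 12-array set and the 4-array set. The cholesterol synthesis median was 0.03 in the 12-array set and -0.46 in the 4-array set, where 0 rose and 11 of 18 fell, and Fdft1 differed by 1.27 (adjusted p = 0.000502). The nucleolar median was -0.11 against 0.14, with 7 of 25 called higher in the 4-array set, and Ddx21 differed by -1.29 (adjusted p = 0.0283, and 0.0769 to 0.150 without one of the 4 arrays). Mir17hg averaged -0.67 ± 0.37 (SD, n = 12) against 0.40 ± 0.49 (SD, n = 4), a difference of -1.07 (adjusted p = 0.00516). The p53 list median was 0.05 against 0.39, with 10 of 18 called higher in the 4-array set. Cdkn1a was 0.43 in the 12-array set and 0.51 in the 4-array set, and Aen was -0.32 and 1.16. The integrated stress response median was 0.09 against -0.14, and Trib3 was 0.51 and -1.08. The genes lowest in the 12-array set relative to the 4 were Gm20767, a predicted gene (-1.82), the costimulatory ligand gene Tnfsf4 (-1.61), the thymic self-antigen regulator gene Aire (-1.49) and Aen (-1.48). Aire had an SD of 3.18 on the 4 arrays, which were at -0.31 and -2.43 with the empty virus in Cy5 and at 3.63 and 4.19 in Cy3. Its difference of group means is smaller than that spread (adjusted p = 0.0476), and it was not called without replicate 1 (-0.96), 3 (-1.63) or 4 (-1.35) of the 4-array set.

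**Figure D5:**
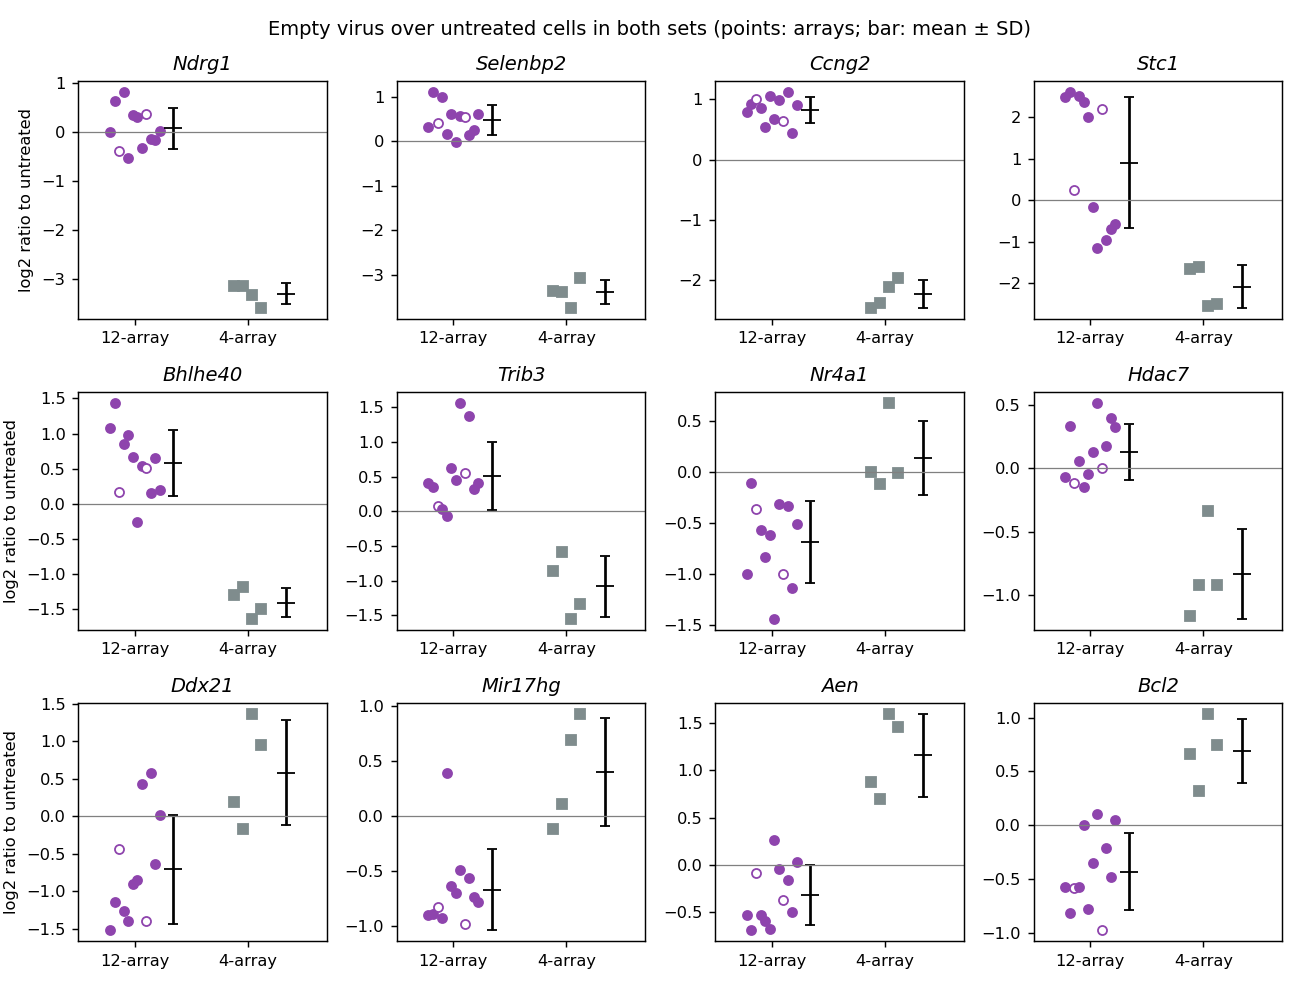
Log2 ratio of empty virus over untreated cells for 12 genes in the 12-array set (left, circles, open for replicates 3 and 9) and the 4-array set (right, squares), each panel with its own vertical axis. Bars are mean ± SD. The 12 genes were picked from those called between both sets. The arrays of Nr4a1, Ddx21 and Mir17hg overlap between both sets, and those of the other genes shown do not.

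Of the class IIa deacetylase genes among the study genes, Hdac7 and Hdac5 differed between both empty-virus sets and Hdac9 was not called (difference -0.033, adjusted p = 0.965). Hdac7 averaged 0.13 ± 0.22 (SD, n = 12) in the 12-array set and -0.83 ± 0.35 (SD, n = 4) in the 4-array set, a difference of 0.96 (adjusted p = 0.000305). Hdac5 averaged 0.10 and -0.66, a difference of 0.75. Nr4a1 averaged -0.69 ± 0.40 (SD, n = 12) against 0.14 ± 0.36 (SD, n = 4), a difference of -0.82 (adjusted p = 0.0463). The Nr4a1 difference was -0.65 without replicate 3 of the 4-array set (adjusted p = 0.273), and it was not called without any other of the 4 either (lowest adjusted p 0.0558). Neither set carries an HDAC7 or Nur77 construct by its labels.

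For scale, the same genes are given in the hybridoma groups that carried a construct or a stimulus, each also set against untreated cells. These comparisons share untreated cells as the second RNA, so only the means stand side by side. Nr4a1 averaged 4.50 with Nur77, 2.59 with HDAC7-VP16, 1.36 with MEF2D-VP16, 4.30 in stimulated empty-virus cells and 1.89 in stimulated HDAC7 DP cells, against -0.69 in the 12-array set. Cd6 averaged 2.41 with HDAC7-VP16, 2.05 with MEF2D-VP16, 2.07 with Nur77, -0.76 in stimulated empty-virus cells and -1.86 in stimulated HDAC7 DP cells, against -0.36. Ccng2 averaged -1.16 with HDAC7-VP16, -1.35 with Nur77, 1.15 with MEF2D-VP16, -1.76 in stimulated empty-virus cells and -1.62 in stimulated HDAC7 DP cells, against 0.82. Selenbp2 averaged -1.63 with HDAC7-VP16, -1.65 with Nur77, 1.95 with MEF2D-VP16, -0.74 in stimulated empty-virus cells and -0.65 in stimulated HDAC7 DP cells, against 0.48. Rsrp1 was below 0 on average in both empty-virus sets, at -0.90 in the 12-array set and -0.76 in the 4-array set (difference -0.14, adjusted p = 0.913).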

How the data were processed

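Per the labels' protocols, an acid phenol and guanidinium extraction gave total RNA, whose first-strand cDNA took up aminoallyl-dUTP and was coupled to Cy3 or Cy5. The authors deposited 1 log ratio per probe and array, read here as log2. How arrays were scanned, corrected and normalized, the log base and the direction of the ratio are not stated in the sources used here, and base 2 and empty virus over untreated were assumed. Gene symbols came from the platform annotation, updated through Entrez ID to RefSeq (14272 of 16463 probes matched). One symbol was held by 14551 probes, several by 6 and none by 1906. Arrays were centred on their median and fitted with limma 3.58.1 (lmFit, eBayes; statmod 1.5.0, R 4.3.3) with a dye column, against 0, with calls at an adjusted p (Benjamini-Hochberg, all probes) under 0.05. The code was tested on simulated data. The number of arrays limits the precision. Named genes are the study genes, the 12 highest and 12 lowest called with their direction on at least 10 of 12 arrays, up to 3 called members per list by size, and the 4 highest and 4 lowest of each other contrast. Further members were named after their values were seen. Where a gene had more than 1 probe, the first in the table was used. The members and the 27 lists were chosen with earlier results of these data known. Alternatives covered the dye term, slide series, slide number, the direction of replicates 3 and 9, centring, normalization, array weights and each replicate left out.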

Additional observations from a re-analysis of the deposited data

Results flagged for a closer look

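In the following genes the ratio of empty virus over untreated cells differed between both empty-virus sets. The test was the 12-array set minus the 4-array set in limma. The genes higher in the 12-array set were Selenbp2 (3.87), Ndrg1 (3.36), Ccng2 (3.05), Stc1 (3.00), Bhlhe40 (1.99), Klf2 (1.59), Trib3 (1.59), P2rx3 (1.29), Fdft1 (1.27), Tsc22d3 (1.27), Ier3 (1.26), Gadd45b (1.18), Adm (1.10), Dusp1 (1.04), Cdc42ep2 (1.02), Hdac7 (0.96), Mras (0.78), Ccn4 (0.77) and Hdac5 (0.75), as log2 differences. The genes lower in the 12-array set were Gm20767 (-1.82), Tnfsf4 (-1.61), Aire (-1.49), Aen (-1.48), Ddx21 (-1.29), Bcl2 (-1.12), Mir17hg (-1.07), Usp18 (-1.04), BC018473 (-1.03), Cyp20a1 (-0.92), Tpp2 (-0.84), Nr4a1 (-0.82), Aanat (-0.75), Pglyrp2 (-0.74), Cd53 (-0.58), Txnip (-0.56), Bbc3 (-0.50) and Stk17b (-0.50). Bbc3 rose in both sets, by less in the 12-array set. Of these 37 genes 8 to 11 were not called without one array of the 4-array set, and 0 reversed.

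Slide series 15 and 14 differed within the 12-array set for Ddx6 (1.60), Prrc2c (1.45), Kdm5a (1.34), Kmt2c (1.29), Matr3 (1.05), Sh2d2a (-0.71), Dgcr8 (-0.64) and Ccar2 (-0.40), as the log2 difference of series 15 minus series 14.

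For 2 named genes 1 array of the 4-array set lay far from its other 3: Nr4a1 at 0.68 and Pglyrp2 at 0.28. A test of this kind marks about 1 gene in 20 by chance, and 67 genes were looked at.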

How the results depend on the processing

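The 325 calls changed with the handling of replicates 3 and 9: 623 with their dyes exchanged, 827 with the slide series as a block as well (chosen after seeing the data), and 0 with their signs turned, with or without the dyes (1376 and 848 probes at an unadjusted p under 0.05). The slide number as a replicate block gave 542 at an estimated correlation of -0.17, and averaging same-numbered slides gave 277. Same-numbered slides correlated at -0.51 to 0.58, and the 2 values below 0 involved replicate 3 or 9. These correlations follow the dye, so they cannot tell whether same-numbered slides share RNA. The main fit did not pair them. Series 14 alone gave 41 and series 15 alone 189. Leaving out one array gave 178 to 333, the lowest without replicate 1. The dye term called 5065 with the signs turned, 5480 with the dyes exchanged, 4912 without both arrays and 4824 in series 15 alone, and the difference between series 8, 129 and 94 under the first 3. The 12-array minus 4-array count was 850 exchanged, 285 with no dye column and 250 to 308 without one array of the 4-array set. The cause was not tested.

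Of 45 called named genes, 0 lost their call with the dyes exchanged, with array weights or with the replicate block, 32 did in series 14 alone as titled, 17 in series 15 alone, 5 to 12 without one array and 45 with the signs turned, and 0 reversed. Reversals concerned uncalled genes: Hdac5 (-0.0473 in series 14, either dye setting), Bcl6 (0.0162 likewise), Hdac9 (0.051 in series 15), Mef2c (0.0108 in series 15, and -0.0203 to 1e-04 without one array) and Irf4 (-0.151 in series 15, -0.053 with the signs turned in either form, -0.0178 without both arrays, -0.0378 with array weights, and -0.0483 to 0.0962 without one array).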
